A study of Mus musculus with 4 samples.

Results

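Prostaglandin synthesis and signalling genes were examined in differentiated 3T3-L1 cells treated with risperidone, an antipsychotic drug. The set holds 10 of the 16051 genes in the deposited expression table, chosen by symbol. They are the phospholipase Pla2g4a, the cyclooxygenases Ptgs1 and Ptgs2, the prostaglandin E synthases Ptges, Ptges2 and Ptges3, prostacyclin synthase (Ptgis), prostaglandin reductase Ptgr1, and the receptors Ptger4 and Ptgfr. All 10 symbols matched 1 row each.

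3T3-L1 is a mouse preadipocyte cell line from NIH SWISS embryo tissue that takes on adipocyte features after a hormone cocktail. The differentiated cells received the vehicle DMSO or 100 μM risperidone for 48 h, and mRNA was sequenced in 2 libraries per group. In the labels the control treatment reads as untreated, while the study's methods name DMSO, which is followed here. RNA from 3 cultures was pooled for each library, so p-values measure the spread between pooled libraries and not between single cultures.

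Prostaglandins are short-lived lipid signals made from arachidonic acid. Phospholipase A2 frees arachidonic acid from membranes, a cyclooxygenase turns it into prostaglandin H2, and separate synthases turn that into prostaglandins E2, D2 and F2α, prostacyclin or thromboxane, each read by its own G protein-coupled receptors. In preadipocytes, signalling by the prostaglandin F2α receptor is known to inhibit adipogenesis and prostacyclin to promote it, while some prostaglandin D2 products can activate PPARγ.

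The start-site regions of 4 members are shown first, because they belong to the cyclooxygenase that rose, the cyclooxygenase that was not called, and the receptor and the reductase that fell. Each runs from 250 bases before to 50 bases after a RefSeq start site in build GRCm38.p6. They lie at chr1:150099781-150100080 on the plus strand for Ptgs2, chr2:36230176-36230475 on the plus strand for Ptgs1, chr3:151837479-151837778 on the minus strand for Ptgfr and chr4:58987029-58987328 on the minus strand for Ptgr1. Capitals mark letters that match a searched motif on either strand.
Ptgs2: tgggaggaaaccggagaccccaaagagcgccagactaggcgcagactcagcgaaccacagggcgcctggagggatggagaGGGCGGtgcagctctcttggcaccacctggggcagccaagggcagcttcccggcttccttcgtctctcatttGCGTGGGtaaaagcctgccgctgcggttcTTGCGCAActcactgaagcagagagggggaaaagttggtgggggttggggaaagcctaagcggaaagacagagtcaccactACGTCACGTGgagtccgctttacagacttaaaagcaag
Ptgs1: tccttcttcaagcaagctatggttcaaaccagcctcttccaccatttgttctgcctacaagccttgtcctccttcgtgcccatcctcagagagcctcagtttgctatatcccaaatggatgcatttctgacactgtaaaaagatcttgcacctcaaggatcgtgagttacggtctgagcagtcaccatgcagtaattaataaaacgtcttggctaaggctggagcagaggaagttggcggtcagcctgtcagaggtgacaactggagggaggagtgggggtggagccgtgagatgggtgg
Ptgfr: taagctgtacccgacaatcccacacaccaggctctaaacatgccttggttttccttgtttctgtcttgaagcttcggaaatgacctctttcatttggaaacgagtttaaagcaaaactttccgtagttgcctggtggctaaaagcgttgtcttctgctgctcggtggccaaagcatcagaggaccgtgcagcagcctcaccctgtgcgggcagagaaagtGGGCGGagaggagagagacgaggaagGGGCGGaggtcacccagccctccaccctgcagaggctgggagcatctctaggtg
Ptgr1: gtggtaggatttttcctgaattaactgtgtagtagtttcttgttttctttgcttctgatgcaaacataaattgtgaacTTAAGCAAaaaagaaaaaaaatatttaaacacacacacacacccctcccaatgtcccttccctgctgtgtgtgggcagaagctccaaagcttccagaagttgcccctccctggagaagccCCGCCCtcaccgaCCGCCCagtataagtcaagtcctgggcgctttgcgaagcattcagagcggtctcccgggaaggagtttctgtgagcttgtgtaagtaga

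The motifs searched were the cAMP response element core ACGTCA, the E-box CACGTG, a C/EBP site written TTGCNNAA, the AP-1 site TGANTCA, the antioxidant response element TGACNNNGC, the GC box GGGCGG, the EGR site GCGTGGG and the TATA box TATAAA. The Ptgs2 region held 5 of these motifs. Its cAMP response element core began at position 13 after the start site and overlapped an E-box that began at position 17. A C/EBP match began at position -69, an EGR match at -98 and a GC box at -170. The cAMP response element core was found in 7.51% of all 32851 RefSeq regions of this length, the E-box in 7.15%, the C/EBP site in 10.8%, the EGR site in 5.04% and the GC box in 35.7%. The Ptgs1 region held no match. The Ptgfr region held GC boxes at -30 and -4, and the Ptgr1 region held a C/EBP match at -172 and GC boxes at -52 and -39. Across the 10 regions that RefSeq gives for 9 members, the GC box was found in 6, the EGR site in 3, the C/EBP site and the E-box in 2 each, and AP-1 in 0, against 7.81% of all regions. The antioxidant response element and the TATA box were each found in 1 member region, against 12.4% and 13.6% of all regions. Matched letters do not show that a factor binds there. Ptgis was not among the regions used.

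The libraries held 15883712 to 16374119 estimated counts. A count of 0 at this depth allows up to 3 counts, which is 0.183 to 0.189 CPM and covers counting error only. Of the 14 adipocyte markers, 8 stayed below 1 FPKM in all 4 libraries, among them Adipoq and Cebpa, while Pparg was at 11.4 to 12.8 FPKM, so the adipocyte label rests on part of its markers; these 3 genes were picked with their values known. The summed adipocyte marker level was 431 and 484 FPKM with DMSO and 291 and 308 FPKM with risperidone, and 0 of the 6 tested markers rose and 4 fell, including Fabp4. Of 11 tested preadipocyte or fibroblast markers, 4 rose and 4 fell. The falling share was 66.7% in the adipocyte list, and 36.4% rose and 36.4% fell in the preadipocyte or fibroblast list. At the same limit, an edgeR adjusted p under 0.05, 32.1% of all genes tested were higher and 32.2% lower. The preadipocyte factor Dlk1 was 2.86-fold, Thy1 2.08-fold and the collagen Col1a1 1.98-fold higher (edgeR adjusted p of 1.06e-07 or less), while Col3a1 (0.51-fold), S100a4 (0.56-fold), Pdgfrb (0.71-fold) and Col1a2 (0.90-fold), named with their values known, were lower. Ly6a, the other marker that rose, lost its call without risperidone replicate 2 (log2 fold change 0.53, edgeR adjusted p = 0.182). In risperidone replicate 2 alone, 16 kidney genes summed to 235 FPKM, against 2.52 to 3.70 in the other libraries. Each tested member is therefore also given without that library. The extraction label names retina, whose 4 listed markers in the table stayed below 1 FPKM each in every library. The part of these marker differences in the results was not tested. In bulk RNA, fewer cells of a type and less RNA per cell cannot be told apart.

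**Figure D1:**
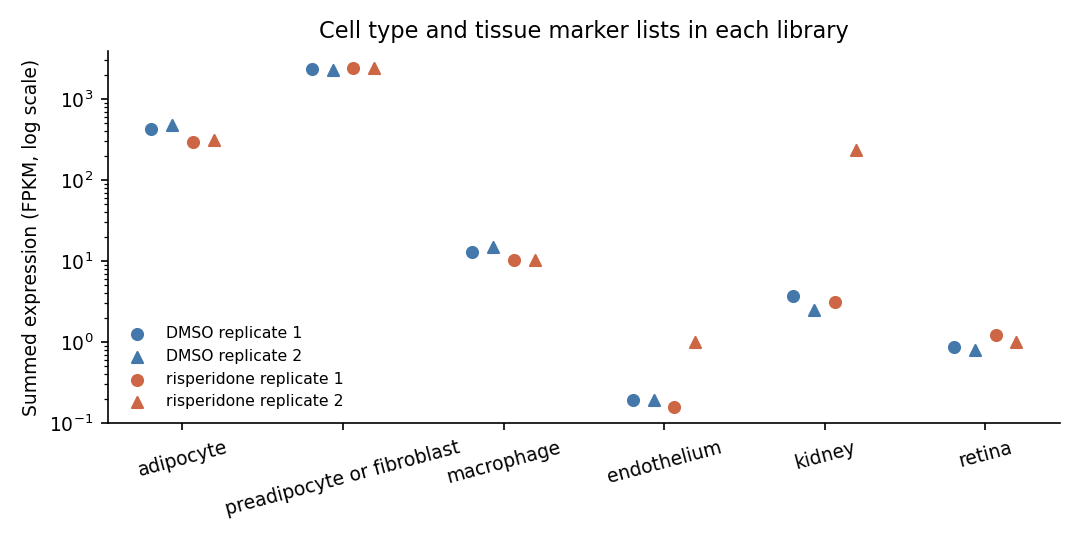
Summed expression in FPKM (log axis) of 6 marker lists in each of the 4 libraries, with DMSO in blue, risperidone in orange, circles for replicate 1 and triangles for replicate 2. Kidney markers reached 235 FPKM in risperidone replicate 2 only, and adipocyte markers were at 431 and 484 FPKM with DMSO against 291 and 308 FPKM with risperidone.

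With risperidone, the mRNA of Ptgs2 and Ptgis was 1.44- and 1.50-fold higher, and that of Ptgr1 and Ptgfr was at 0.55 and 0.35 of the DMSO level. Smaller increases of Pla2g4a, Ptges, Ptges2 and Ptges3 passed the test but turned to slightly negative values when the libraries were scaled to TPM. On that scale the median log2 difference of all 10243 genes was itself -0.22, against 0.00 in the count test, so these members lay above the median gene on both scales. Ptgs1, the most abundant member, was not called, and Ptger4 was too low to be tested. In all, 9 of the 10 members averaged 1 FPKM or more across libraries and entered the test, which covered 10243 genes. Of these 9 members, 6 were higher, 2 were lower and 1 was not called at an adjusted p under 0.05 by edgeR's quasi-likelihood test, with p-values adjusted after Benjamini and Hochberg over all genes tested. Among these genes, 32.1% were higher, 32.2% were lower and 64.3% were called in either direction. The median log2 fold change was 0.21 over the 9 members and 0.00 over all genes tested. With each library left out in turn, log2 fold changes ranged from 0.47 to 0.58 for Ptgs2 and from 0.56 to 0.62 for Ptgis. Those of Ptgr1 ranged from -1.02 to -0.66 and those of Ptgfr from -1.61 to -1.42. The smaller increases of Pla2g4a, Ptges, Ptges2 and Ptges3 stayed at 0.136 or more. However, Pla2g4a, Ptges2 and Ptges3 lost their call without some libraries, as given below.

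**Figure D2:**
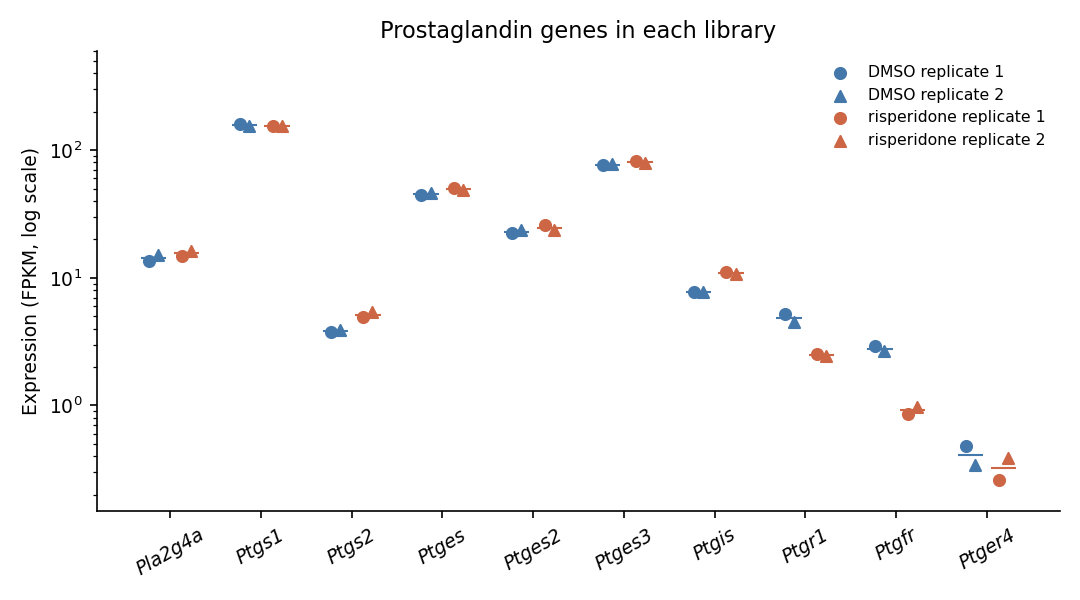
Expression in FPKM (log axis) of the 10 prostaglandin genes in each library, with DMSO in blue, risperidone in orange, circles for replicate 1, triangles for replicate 2 and short lines for the group means. Ptgs1 lay above 150 FPKM in all 4 libraries, Ptgs2 and Ptgis were higher in both risperidone libraries, and Ptgr1 and Ptgfr were lower in both.

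Cytosolic phospholipase A2 (Pla2g4a, NCBI Gene 18783, chr1:149829618-149961290, minus strand) releases the arachidonic acid that the cyclooxygenases use. It was at 13.6 and 15.2 FPKM with DMSO and at 14.9 and 16.3 FPKM with risperidone. The groups overlapped in FPKM. The log2 fold change was 0.21 (SE 0.0700, adjusted p = 0.0208 by edgeR's quasi-likelihood test), and it was -0.03 on the TPM scale. This call was lost without risperidone replicate 2 (0.15, adjusted p = 0.106) and without DMSO replicate 1 (0.14, adjusted p = 0.164), both by edgeR.

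Ptgs1 (NCBI Gene 19224, chr2:36216742-36258593, plus strand) encodes cyclooxygenase-1, the form that most cells make constantly. Its levels were 160 and 155 FPKM with DMSO and 153 and 155 FPKM with risperidone, above those of 95.9% of the tested genes by mean FPKM. The groups overlapped. Its log2 fold change was 0.06 (SE 0.0472, adjusted p = 0.258 by edgeR), 0.06 without risperidone replicate 2, with a negative sign when only library size was scaled (-0.03) and a call as lower on the TPM scale with limma (-0.17, adjusted p = 0.0137), where the median of all genes was lower still, at -0.22. GENCODE places the exons of a gene on the opposite strand, Gm43621, over 148 bases of Ptgs1. Whether counting used strand is not given in the sources used here, so reads of such a pair cannot be told apart.

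Ptgs2 (NCBI Gene 19225, chr1:150100031-150108234, plus strand) encodes cyclooxygenase-2, the form that growth factors and inflammatory signals induce. It lies 138.7 kb from Pla2g4a on chromosome 1, with 2 other annotated genes between them. It was at 3.73 and 3.90 FPKM with DMSO and at 4.93 and 5.37 FPKM with risperidone, from 264 and 268 counts and from 347 and 372 counts. Both risperidone libraries were above both DMSO libraries. Ptgs2 rose by a log2 fold change of 0.53 (SE 0.0894, adjusted p = 0.00037 by edgeR), or 1.44-fold, and by 0.47 without risperidone replicate 2. On the TPM scale the log2 difference was 0.26 and missed the threshold (adjusted p = 0.0571 by limma).

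FPKM is a level per length, so the cyclooxygenases can be set side by side. Ptgs1 made up 97.7% and 97.5% of their summed FPKM with DMSO and 96.9% and 96.7% with risperidone. This is a mean of 97.6% ± 0.130 (SD, n = 2) against 96.8% ± 0.158 (SD, n = 2), given as a description without a test. The ratio of Ptgs1 to Ptgs2 FPKM was 43.0 and 39.7 with DMSO and 31.1 and 28.9 with risperidone. Thus Ptgs1 remained by far the more abundant mRNA in every library while the share of Ptgs2 was larger in both risperidone libraries.

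The prostaglandin E synthases turn prostaglandin H2 into prostaglandin E2. Ptges (NCBI Gene 64292, chr2:30889471-30931020, minus strand) encodes the inducible microsomal enzyme, Ptges2 (NCBI Gene 96979, chr2:32395890-32402740, plus strand) a second membrane-associated one, and Ptges3 (NCBI Gene 56351, chr10:128058982-128077254, plus strand) the cytosolic enzyme, also known as the Hsp90 co-chaperone p23. All 3 were called as higher in the count test and all 3 had slightly negative log2 differences on the TPM scale.

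Ptges was at 44.8 and 46.1 FPKM with DMSO and at 50.4 and 49.1 FPKM with risperidone. The groups did not overlap, and the log2 fold change was 0.23 (SE 0.0462, adjusted p = 0.00136 by edgeR) against -0.01 on the TPM scale and 0.25 without risperidone replicate 2. Ptges2 was at 22.3 and 23.5 FPKM with DMSO and at 25.8 and 23.6 FPKM with risperidone. Its second risperidone library lay next to the higher DMSO library, and the log2 fold change was 0.21 (SE 0.0670, adjusted p = 0.0183 by edgeR) against -0.03 on the TPM scale and 0.28 without risperidone replicate 2. The Ptges2 call was lost without risperidone replicate 1 (0.14, adjusted p = 0.123 by edgeR) and without DMSO replicate 1 (0.17, adjusted p = 0.0793 by edgeR).

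Ptges3 was at 76.2 and 77.5 FPKM with DMSO and at 82.6 and 79.9 FPKM with risperidone. Its log2 fold change was 0.17 (SE 0.0465, adjusted p = 0.00718 by edgeR) against -0.06 on the TPM scale. The call was lost without either DMSO library, at log2 fold changes of 0.16 without replicate 1 and 0.18 without replicate 2. Without risperidone replicate 2 the log2 fold change was 0.20. Per length, Ptges3 was the most abundant of the 3 synthases and Ptges2 the least in every library. Ptges took 66.8% and 66.2% of the summed FPKM of Ptges and Ptges2 with DMSO and 66.2% and 67.5% with risperidone, and these shares overlapped.

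Prostacyclin synthase (Ptgis, NCBI Gene 19223, chr2:167203194-167252150, minus strand) makes prostacyclin from prostaglandin H2. It was at 7.79 and 7.74 FPKM with DMSO and at 11.1 and 10.8 FPKM with risperidone, from 206 and 199 counts and from 292 and 279 counts. The groups were well apart. Ptgis rose by a log2 fold change of 0.59 (SE 0.107, adjusted p = 0.00059 by edgeR), or 1.50-fold, and by 0.62 without risperidone replicate 2. It was called as higher under all 14 alternatives of scaling, filter, model or libraries, but it did not reach an absolute log2 fold change of 1. Its log2 values ranged from 0.33 on the TPM scale to 0.62. Its exons overlap those of 1110018N20Rik on the opposite strand over 156 bases.

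**Figure D3:**
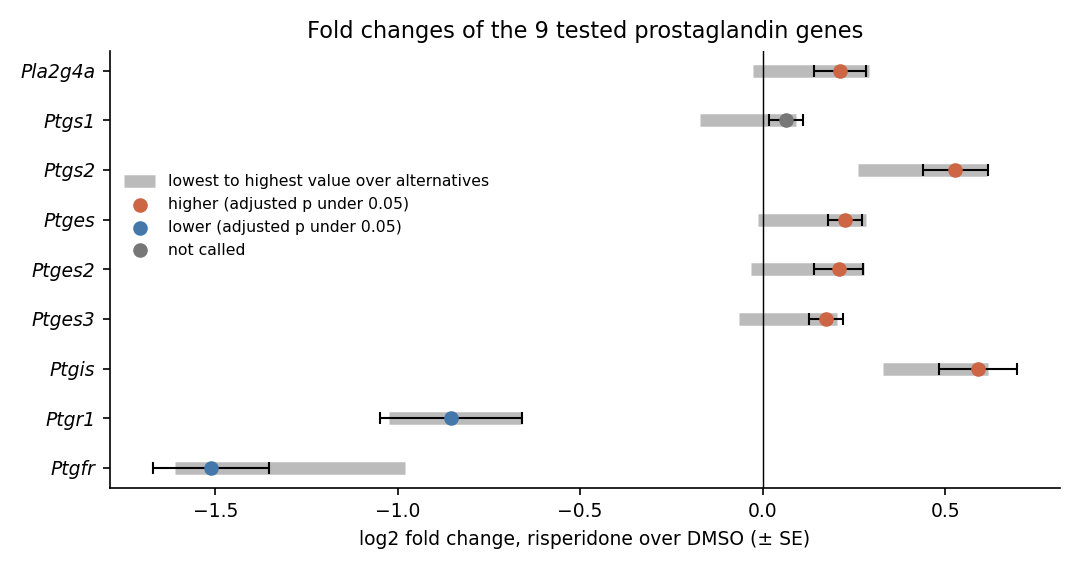
Log2 fold change (risperidone over DMSO) of the 9 tested members, with points for the edgeR estimate, bars for its SE and grey bands for the lowest to highest value over the alternative settings. The bands of Pla2g4a, Ptgs1, Ptges, Ptges2 and Ptges3 cross 0, and those of Ptgs2 (0.26 to 0.61), Ptgis (0.33 to 0.62), Ptgr1 (-1.02 to -0.66) and Ptgfr (-1.61 to -0.98) do not.

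Ptgr1 (NCBI Gene 67103, chr4:58965590-58987131, minus strand) encodes a reductase that inactivates prostaglandins and leukotriene B4. It was at 5.23 and 4.52 FPKM with DMSO and at 2.54 and 2.42 FPKM with risperidone, from 131 and 99 counts and from 62 and 57 counts. Both risperidone libraries were below both DMSO libraries. Ptgr1 fell by 0.85 on the log2 scale (SE 0.194, adjusted p = 0.00262 by edgeR), to 0.55 of the DMSO level. The change was -0.80 without risperidone replicate 2, and ranged from -1.02 to -0.66 with each library left out.

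Ptgfr (NCBI Gene 19220, chr3:151798610-151837528, minus strand) encodes the prostaglandin F2α receptor, which couples mainly to Gq. It was at 2.91 and 2.65 FPKM with DMSO and at 0.85 and 0.98 FPKM with risperidone, from 204 and 180 counts and from 59 and 67 counts. Both risperidone libraries were below 1 FPKM, so the gene passed the filter on low values through its DMSO level. Ptgfr fell by 1.51 on the log2 scale (SE 0.159, adjusted p = 1.18e-05 by edgeR), to 0.35 of the DMSO level, and by 1.61 without risperidone replicate 2. Of all tested genes, 1.10% had a lower log2 fold change. Its exons overlap those of Gm43618 on the opposite strand over 329 bases.

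Ptger4 (NCBI Gene 19219, chr15:5233399-5244187, minus strand) encodes the EP4 receptor, which raises cAMP when prostaglandin E2 binds. It was at 0.48 and 0.34 FPKM with DMSO and at 0.26 and 0.39 FPKM with risperidone, from 25 and 17 counts and from 13 and 20 counts. The groups overlapped and the mean was under the limit for testing. With no filter on low values the log2 fold change was -0.25 (adjusted p = 0.654 by edgeR), so a difference was not detectable at this depth.

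Among the other prostanoid receptors, Ptger1, the EP1 receptor, was at 0.88 and 0.54 FPKM with DMSO and at 0.69 and 0.65 FPKM with risperidone. The prostacyclin receptor Ptgir, chosen after its values were seen, was at 0.07 to 0.16 FPKM over the 4 libraries. Ptgfr made up 65.7% and 73.4% of the summed FPKM of Ptgfr, Ptger1, Ptger3, Ptger4 and Ptgir with DMSO, and 45.5% and 43.0% with risperidone. It was thus the most abundant of these receptor mRNAs in all 4 libraries, by a smaller margin with risperidone. Ptgfrn, a membrane protein known to inhibit the prostaglandin F2α receptor, rose from 25.4 ± 1.66 to 29.7 ± 2.28 FPKM (SD, n = 2; log2 fold change 0.32, edgeR adjusted p = 0.000916).

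The rest of the pathway was read from lists of related genes. Of 120 related genes in the table, 79 were tested, 31 were higher and 28 were lower, with a median log2 fold change of 0.05 against 0.00 for all genes tested. On the TPM scale with limma, 12 were higher and 43 lower. Calls lost there include those of Ptgfrn (0.08, adjusted p = 0.393), Cbr1 (0.05, adjusted p = 0.526), Plaa (0.10, adjusted p = 0.175), Gpx4 (0.01, adjusted p = 0.845) and Prkacb (0.13, adjusted p = 0.0547), all by limma and all above the median gene. In the count test 39.2% of the tested related genes were higher and 35.4% lower, or 74.7% in either direction, against 32.1%, 32.2% and 64.3% of all genes tested. These shares are a description, with no test.

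Of the phospholipases A2 and their activator, 5 were tested, 3 were higher and 1 was lower. That is 60% and 20%, against 32.1% and 32.2% of all genes tested. Pla2g12a, a secreted enzyme, rose from 22.9 ± 0.990 to 31.8 ± 2.76 FPKM (SD, n = 2; log2 fold change 0.57), Pla2g6, the calcium-independent enzyme, by 0.44 on the log2 scale, and the activating protein Plaa by 0.34. Pla2g16, a phospholipase of adipose tissue, fell by 0.75 on the log2 scale. All of these had an adjusted p of 0.00359 or less by edgeR.

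Both tested genes among the other prostanoid synthases were higher, where 32.1% of all genes tested were. Akr1b3, an aldose reductase that can make prostaglandin F2α, was at 587 and 603 FPKM with DMSO and at 915 and 869 FPKM with risperidone (log2 fold change 0.68, SE 0.0505, edgeR adjusted p = 9.08e-07). Its FPKM was 13.1 times that of Ptges in both DMSO libraries and 18.1 and 17.7 times with risperidone. Akr1b3 thus rose in the libraries in which Ptgfr, the receptor of its product, fell. A link between these changes was not tested, and prostaglandin F2α levels are not part of these data. Cbr1, a carbonyl reductase that converts prostaglandin E2, rose by 0.29 on the log2 scale (edgeR adjusted p = 0.00263). The synthases Ptgds, Hpgds and Tbxas1, chosen after their values were seen, had means too low for testing, and only Ptgds exceeded 1 FPKM in any library, at 1.28 in risperidone replicate 1. Ptgds, which makes prostaglandin D2, had 1 count in each DMSO library and 14 and 7 counts with risperidone, and it was called as higher when no filter was applied (adjusted p = 0.0258 by edgeR).

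Of the genes for prostaglandin transport and breakdown, 5 were tested, 0 were higher and 3 were lower, with a median of -0.24. The lower share was 60%, while 32.1% of all genes tested were higher and 32.2% lower. The organic anion transporter Slco3a1 fell from 20.6 ± 0.297 to 13.4 ± 0.198 FPKM (SD, n = 2; log2 fold change -0.50). The prostaglandin reductases Zadh2 (-0.48) and Ptgr2 (-0.24, edgeR adjusted p = 0.00712) fell too. The Ptgr2 call was lost with DESeq2 at about the same log2 fold change (-0.24, adjusted p = 0.0782) and, in edgeR, without risperidone replicate 1 (-0.17). Ptgr1, Ptgr2 and Zadh2 thus all had lower levels with risperidone and kept that sign under every scaling tried, while Cbr1 rose.

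**Figure D4:**
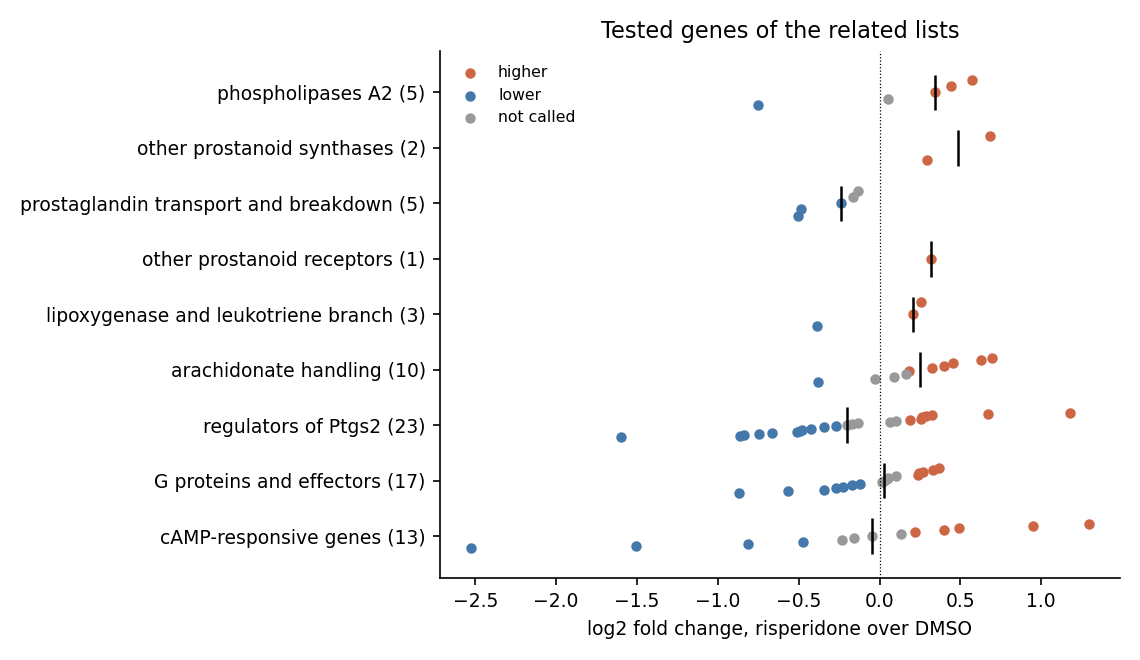
Log2 fold change (risperidone over DMSO) of the tested genes in 9 related lists, with the number tested after each name, orange for higher, blue for lower, grey for not called and black lines for list medians. Phospholipases A2 and arachidonate genes lie mostly to the right of 0, transport and breakdown genes to the left, and the regulators of Ptgs2 on both sides.

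Genes that handle arachidonate comprised 10 tested genes, of which 6 were higher and 1 was lower. Against 32.1% and 32.2% of all genes tested, these are 60% and 10%. The higher genes include Fabp5, a fatty acid binding protein (log2 fold change 0.69), and the acyl-CoA synthetase Acsl3 (0.62). The elongase Elovl5 (0.45) and desaturase Fads1 (0.40), which build long polyunsaturated fatty acids, are also among them. Of the lipoxygenase and leukotriene branch, 3 genes were tested. Gpx4, a lipid peroxidase that restrains lipoxygenases, rose by 0.26 on the log2 scale, and the epoxide hydrolase Ephx1 fell by 0.39. Lta4h, which makes leukotriene B4, had a log2 fold change of 0.20 (edgeR adjusted p = 0.0409) and of -0.05 on the TPM scale. The Lta4h call was lost under 11 of 14 alternatives, and without risperidone replicate 1 the value was 0.09 (adjusted p = 0.269 by edgeR).

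Of the known regulators of Ptgs2 transcription and mRNA, 23 were tested, 7 were higher and 11 were lower, while Ptgs2 itself was higher. The regulator shares were 30.4% higher and 47.8% lower, against 32.1% and 32.2% of all genes tested. Egr1, an immediate early factor, was at 10.5 and 10.1 FPKM with DMSO and at 2.95 and 3.42 FPKM with risperidone and fell by 1.60 on the log2 scale (edgeR adjusted p = 2.58e-07). The Ptgs2 region printed above holds 1 EGR match, as do the regions of Ptges and Ptges2. A link to Egr1 was not tested. Celf2, an RNA-binding protein that restrains Ptgs2 translation, fell by 0.87 on the log2 scale, and Nfkb1, an NF-κB subunit, by 0.84. Atf3, a stress-induced factor that binds cAMP response elements, rose by 1.18 on the log2 scale from 1.11 ± 0.361 FPKM with DMSO to 2.35 ± 0.262 FPKM with risperidone (SD, n = 2; edgeR adjusted p = 0.00218).

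Of the G proteins and effectors that the receptors use, 17 were tested, 5 were higher and 7 were lower. These are 29.4% and 41.2%, against 32.1% and 32.2% of all genes tested. Gnaq, a Gq subunit through which Ptgfr can signal, fell from 20.9 ± 0.283 to 15.5 ± 1.51 FPKM (SD, n = 2, log2 fold change -0.34). Plcb1, a phospholipase C that Gq activates, fell from 4.87 ± 0.297 to 2.50 ± 0.339 FPKM (SD, n = 2, log2 fold change -0.87). The protein kinase A subunit Prkar2b fell by 0.57 on the log2 scale, and the catalytic subunit Prkacb rose by 0.37. All 4 had an adjusted p of 0.000673 or less by edgeR. Without risperidone replicate 2 the values were -0.44 for Gnaq and -1.01 for Plcb1. These falls did not extend to every related gene of the list. The subunit Gna11, whose DMSO mean of 50.5 FPKM was above that of Gnaq, was not called (log2 fold change 0.10, edgeR adjusted p = 0.0648). Plcb3 was not called either (0.01, edgeR adjusted p = 0.847), and Plcb4 rose (0.33, edgeR adjusted p = 0.00669). Gna11, Plcb3 and Plcb4 were named with their values known.

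The cAMP-responsive genes moved in both directions, with 5 higher and 4 lower of 13 tested. These shares, 38.5% and 30.8%, were near the 32.1% and 32.2% of all genes tested. Dusp1, a MAP kinase phosphatase, was at 32.2 and 32.6 FPKM with DMSO and at 4.55 and 5.96 FPKM with risperidone (log2 fold change -2.53), and Rgs2, which restrains Gq signalling, was at 43.8 and 45.8 against 14.3 and 15.2 FPKM (-1.51). The nuclear receptors Nr4a2 (1.29) and Nr4a1 (0.95) rose, from means of 1.39 and 0.94 FPKM with DMSO. All 4 had an adjusted p of 0.00644 or less by edgeR. Nr4a1 passed the filter on low values through its risperidone level, and its call was lost without risperidone replicate 1 (0.65, adjusted p = 0.0520 by edgeR).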

How the data were processed

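Differentiated 3T3-L1 cells were profiled by mRNA sequencing on MGISEQ-2000, with 2 libraries per group. The authors removed adaptor, poly-N and low-quality reads and deposited an estimated count (expected count), an FPKM and a TPM value per gene and library. The submitters' processing notes name Bowtie2, RSEM, DESeq2 and GRCm38.p6, without versions or roles. Group means deposited by the authors were not used, and 0 further sample columns were left out.

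Rounded counts of genes that averaged at least 1 FPKM across the 4 libraries were tested with edgeR 4.0.16 in R 4.3.3 (quasi-likelihood F-test, TMM factors 0.963 to 1.03, two-sided, Benjamini-Hochberg over all 10243 genes, threshold 0.05). The SE was taken from the F statistic, as the size of the log2 fold change over its square root. Alternatives were no filter, at least 5 FPKM, RLE factors, library size only, a gene length offset, DESeq2 1.42.0, limma 3.58.1 on log2(FPKM + 1), log2(FPKM + 0.1) and log2(TPM + 1), a replicate block, each library left out, and a limit of 1 on the size of the log2 fold change. Replicates differed beyond counting error in 12.4% (DMSO) and 23.5% (risperidone) of genes, where 5% is the chance level, so none was counted as a duplicate.

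Members and gene lists were chosen with earlier results of these data known. Named genes were all members, up to 4 called genes per list with the largest change, and listed genes under the FPKM limit with at least 20 counts in a library. Regions, coordinates and gene models came from RefSeq (GRCm38.p6) and GENCODE. Python 3.11.15, pandas 2.3.3 and matplotlib 3.10.9 were used. The marker lists not described in the report were macrophage genes (1 tested, Cd14, lower) and endothelial genes (0 tested).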

Additional observations from a re-analysis of the deposited data

How the results depend on the processing

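Each group has 2 libraries, and the count test reads changes relative to the median gene. That median was 0.00 on the log2 scale in the count test, -0.09 with library size only and -0.22 with TPM, a shift that bears on every small change. Ptgis, Ptgr1 and Ptgfr kept their direction and their call under each alternative of scaling, filter, model or libraries that tested them, and Ptgs2 under 12 of 13. With the limit of 1 on the log2 size, Ptgfr was the member left. With TPM and limma, 1 member was higher and 3 were lower, of the related genes 12 were higher and 43 lower, and of all genes 1536 and 5292, against 3287 and 3303. Among the 51 tested genes named by the rule, the log2 values that turned negative with TPM were those of Pla2g4a (-0.026), Ptgs1 (-0.17), Ptges (-0.013), Ptges2 (-0.033), Ptges3 (-0.064) and Lta4h (-0.047). Ptgs1 was also negative with library size only (-0.0297) and with limma on FPKM with pseudocounts of 1 (-0.0286) and 0.1 (-0.0288). With library size only 3 members were higher, as with limma on FPKM with either pseudocount, and the split over all genes was 2500 higher and 4092 lower, or 2420 and 3975 with limma and a pseudocount of 1. The cause of these differences beyond the scaling was not tested. At a mean of at least 5 FPKM, 0 members were lower, because Ptgr1 and Ptgfr were then not tested. Without a filter 4 members were higher, and over all genes 2942 were higher and 3086 lower. With DESeq2 4 members were higher too, and over all genes 2639 were higher and 2653 lower. In DESeq2 Pla2g4a (log2 fold change 0.21, adjusted p = 0.110) and Ptges2 (0.21, adjusted p = 0.102) lost their calls at about the same log2 fold change. A limit of 1 on the size of the log2 fold change left 0 higher and 1 lower member, 2 higher and 3 lower related genes, and 267 higher and 401 lower genes. With each library left out in turn, every tested member kept the sign of its log2 fold change, and Pla2g4a, Ptges2 and Ptges3 lost their call in some of these fits. The share of Ptgs1 in the cyclooxygenases differed by -1.33 percentage points in counts and by -0.86 in FPKM. Slc34a1, a kidney transporter, ranged from -0.31 without risperidone replicate 2 to 7.47 without risperidone replicate 1. Over the 51 tested genes named by the rule, 631 values kept their direction and side of the threshold, 61 lost the call and 10 changed sign.

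Replicate numbers come from sample titles and are not known to pair libraries. Across the genes tested, deviations from the group mean in DMSO replicate 1 and risperidone replicate 1 correlated at -0.107. With 2 libraries per group the deviations of replicate 2 mirror those of replicate 1, so they add no further comparison. With a replicate block, 6 members were higher and 2 lower, as without it, and 3292 genes were higher and 3321 lower.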
